A study of Mus musculus with 28 samples.

Results

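Inside breast cancer metastases of the mouse brain, 2 sorts of blood vessel cells were compared: mural cells, taken as PDGFRb-tdTomato-positive cells in 4 libraries, and endothelial cells, taken as CD31-positive cells in 5. These 9 libraries were picked by the breast condition and the sort named in the sample titles, out of 28 in the series, and came from 5 mice, numbered 51950, 52599, 52865, 53072 and 53142. Mouse 53142 gave only the endothelial library, and the other 4 mice gave both. The same 2 sorts from non-tumor control brain, 5 libraries each from 5 other mice, served as the reference for the normal difference between the sorts. All groups came from mice carrying PDGFRb-CreERT2 and Rosa-tdTomato, which were given 2 mg tamoxifen daily for 5 days, so that cells in which the Pdgfrb promoter was active keep a red label. Metastases grew from PyMT-BrM3, a brain-seeking breast cancer line injected into the heart, and the control mice carried no tumor. Per the labels, both sorts were taken from cells gated as negative for CD45, CD11B and EPCAM. The labels give no ages.

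Mural cells comprise pericytes, which sit on capillaries inside the vessel's basement membrane, and smooth muscle cells, which ring larger vessels and contract. Endothelial cells line the lumen, and in the brain they form the blood-brain barrier through tight junctions, low vesicular transport and a set of nutrient and efflux transporters. Both cell types signal to each other, with PDGF-B from the endothelium binding PDGFRb on mural cells as the classical example. In growing vessels, tip endothelial cells lead the sprout and express apelin, endocan and angiopoietin-2.

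Expression is given as CPM, read counts scaled to a common library total after the trimmed-mean (TMM) scaling, unless stated otherwise, and values of single libraries follow the order of mouse numbers above. A log2 difference is PDGFRb minus CD31, so a positive value is higher in the mural sort. Pecam1, which encodes CD31, stood at 666 to 992 CPM of the raw total in the CD31 breast libraries and at 0.422 to 7.76 in the PDGFRb ones. Pdgfrb, the gene behind the other gate, stood at 310.3 to 1175 CPM of the raw total in the PDGFRb breast libraries and at no more than 0.852 in the CD31 ones. All 9 libraries thus carried the gene of their labelled sort, which defined the groups and is no finding. Libraries held 13.6 M to 20.8 M counts in the CD31 and 7.11 M to 23.9 M in the PDGFRb breast group. The PDGFRb library of mouse 51950 stood apart: it had the fewest counts, 9174 genes detected against at least 12601 elsewhere in the series, and correlated with its own group at 0.632 to 0.656. In non-tumor mouse 54135, the title gives 1 sort and the cell type label the other, and its 2 libraries were grouped by title. Pecam1 and Pdgfrb there followed the title, at 1266 and 0.211 CPM of the raw total in the library titled CD31 and 4.98 and 1064 in the one titled PDGFRb.

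RNA of other cells was present in both sorts of breast metastasis. The summed level of 20 epithelial genes, 1 of them at 0 in each sort, was 1519, 2403, 2930 and 5390 CPM of the raw total in the PDGFRb libraries and 1496, 184, 406, 3942 and 378 in the CD31 libraries. In non-tumor brain the same sum was 31.1 to 129.7 and 12 to 21.2 CPM. Mouse 53072 had the highest epithelial sum in each sort. Epcam itself, the gene of the negative gate, reached 73.7 to 279 CPM of the raw total in the PDGFRb and 12.9 to 411 in the CD31 breast libraries, which overlapped. A list of 12 mammary genes summed to 9783 to 42300 CPM of the raw total in the PDGFRb and 1549 to 32870 in the CD31 libraries. Its main contributors were Trf, which encodes transferrin, at 6443 to 22450 and 654 to 18600 CPM, and Csn3, a milk casein, at 3202 to 12640 and 245 to 8907 CPM. Krt8, a keratin of simple epithelia, stood at 418, 578, 533 and 1197 CPM in the PDGFRb and 332, 34.6, 73.7, 857 and 62.5 in the CD31 libraries. A macrophage and microglia list of 16 genes summed to 266, 171, 1515 and 321 CPM of the raw total in the PDGFRb libraries, highest in mouse 52865. It summed to 65.1 to 196 in the CD31 libraries. Of that list C1qc and Lyz2 were called higher in the PDGFRb sort, with log2 differences of 4.3 ± 1.43 (SE, adjusted p = 0.038) and 3.38 ± 1.07 (SE, adjusted p = 0.029). With the mouse as a block their adjusted p was 0.25 and 0.18, and the calls were lost in 6 and 5 of the 19 fits that left out 1 library, at adjusted p of 0.077 to 0.1 and 0.062 to 0.17. Lyz2 shares reads with a near-identical paralog and is uncertain. Astrocyte genes, a list of 12, summed to 783 to 1131 CPM of the raw total in the PDGFRb and 627 to 1027 in the CD31 breast libraries. In non-tumor brain the sums were 1769 to 7007 and 1984 to 2688. In breast metastasis 7 of the list were called higher and 2 lower in the PDGFRb sort, against 9 and 1 in non-tumor brain. The 2 lower ones were Gja1 and Slco1c1, a transporter that brain endothelium also expresses, which stood at 104 to 425 CPM in the CD31 and 0.332 to 4.78 in the PDGFRb breast libraries (log2 difference -6.81 ± 0.85 SE, adjusted p = 1.8e-06). In the CD31 breast libraries Gja1 and Slco1c1 averaged 404 and 241 CPM, while Ntsr2, Gfap and Atp1b2 averaged 0, 1.42 and 1.63. The CD31 sum thus rests largely on Gja1 and Slco1c1 and does not by itself show RNA of astrocytes. The part of any of these cells in the results was not tested, and in sorted bulk RNA more cells of a type and more RNA per cell cannot be told apart. Ptprc (CD45) and Itgam (CD11b) did not exceed 7.76 and 1.34 CPM of the raw total in any of these 9 libraries.

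**Figure D1:**
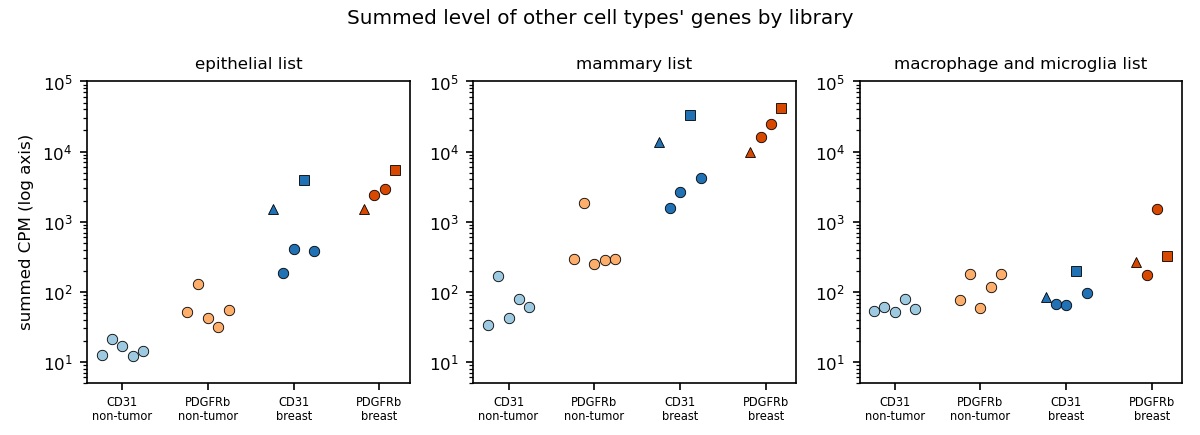
Summed CPM of the raw total for 3 marker lists on a log axis, 1 point per library of the 4 groups. Triangles mark mouse 51950 and squares mouse 53072, which has the highest epithelial and mammary sums in both breast sorts.

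Of 18548 genes tested by quasi-likelihood in edgeR, with p under 0.05 after Benjamini-Hochberg adjustment, 1670 (9%) were higher in the PDGFRb sort of breast metastasis and 1393 (7.51%) were lower. In non-tumor brain the same test called 3227 genes higher (17.4%) and 1946 lower (10.5%). The share of breast calls on the PDGFRb side was 54.5%, and 65.5% with upper-quartile scaling. With the mouse as a block, pairing the 2 sorts of 1 animal, the breast counts fell to 547 and 785, while 3061 of the 3063 called genes had the same direction. The test of the change, which asks whether the breast difference departs from the non-tumor one, called 436 genes toward PDGFRb (2.35%) and 663 toward CD31 (3.57%), or 142 and 188 with the block. Grouping mouse 54135 by its cell type label instead left 935 and 835 breast calls and 0 non-tumor calls in edgeR, against 1732 non-tumor genes at an unadjusted p under 0.05 and 6 calls by limma-voom. The number of changes toward PDGFRb was 678 without the PDGFRb breast library of mouse 51950, which also raised the non-tumor calls toward CD31 to 3168. Dates in the sample columns split the breast libraries into mice 51950 and 53072 against the rest, and 97.9% and 98.2% of the breast calls kept their sign within each date. The calls were made on these same libraries, so that share is largely built in and is no independent check.

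Of the 3227 genes normally higher in the mural sort, 1083 (33.6%) were called the same way in breast metastasis, 42 were called the opposite way and 2102 did not pass. Their median log2 difference was 5.37 in non-tumor brain and 1.76 in breast metastasis. Of the 1946 genes normally higher in the endothelial sort, 869 (44.7%) were called the same way, 9 the opposite way and 1068 did not pass, with medians of -2.78 and -1.44. Both sets were picked by their non-tumor call, which favours larger non-tumor differences, so smaller breast medians are partly built in. Most uncalled genes were not shown to have changed: of the 2102 and 1068, the change itself was called for 414 and 275. The direction was kept by 82.9% and 86% of the normally mural and normally endothelial genes. Together the 1952 genes called alike made up 37.7% of the normal calls and 63.7% of the 3063 breast calls. A further 1060 of 13375 genes not called normally (7.93%) were called in breast metastasis, and for 182 of them the change was called, 72 toward PDGFRb and 110 toward CD31.

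**Figure D2:**
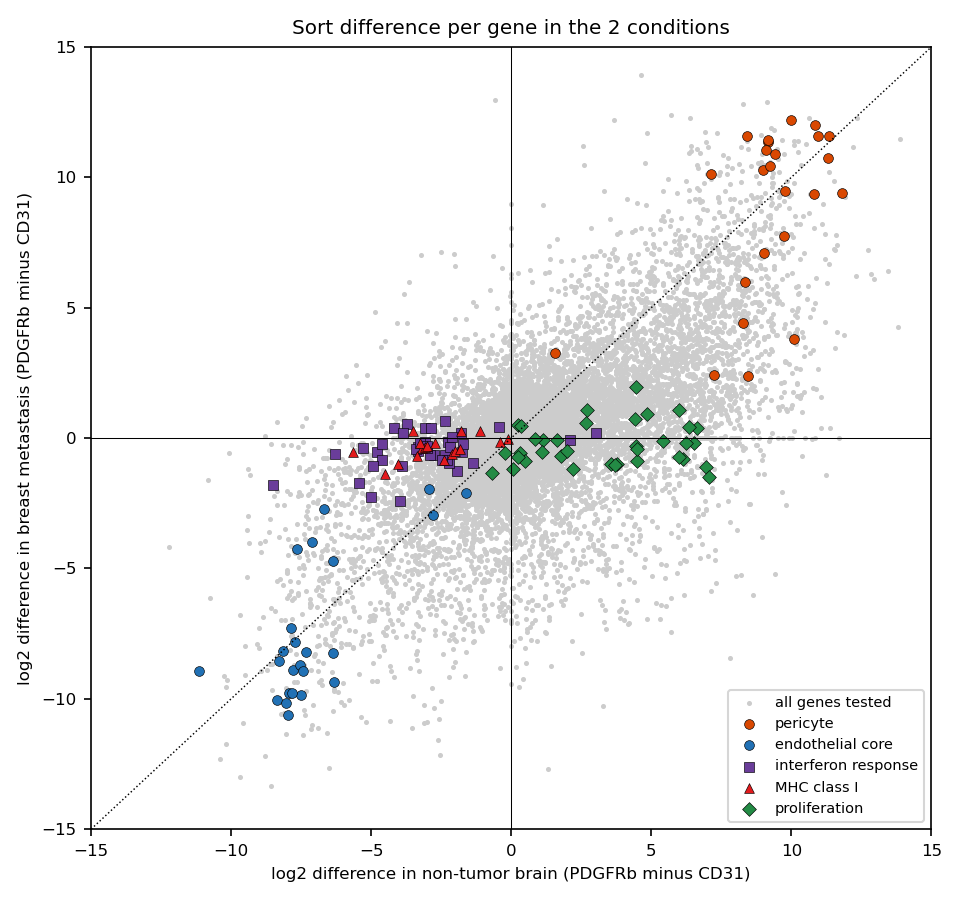
Log2 difference (PDGFRb minus CD31) of each tested gene in non-tumor brain (x axis) and in breast metastasis (y axis), with 5 gene lists coloured and a dotted line at equal differences. Pericyte and endothelial core genes lie near the line, while interferon response, MHC class I and proliferation genes lie near 0 on the y axis.

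The pericyte program stayed with the mural sort. Of 24 pericyte genes 22 were higher in the PDGFRb sort of breast metastasis and none was lower, and 21 of the 23 called in non-tumor brain were called again. The median log2 difference of the list was 10.2, against -0.04 over all genes tested, and it was 9.21 in non-tumor brain. Cspg4, the NG2 proteoglycan of pericytes, stood at 1247, 714, 862 and 382 CPM in the PDGFRb libraries and at no more than 0.402 in the CD31 libraries, a log2 difference of 12.21 ± 1.52 (SE, adjusted p = 1.7e-06). Vtn, which encodes vitronectin, stood at 4843, 4100, 3891 and 1659 CPM against 0.942, 3.62, 0.286, 0.817 and 0.356 (log2 difference 11.6 ± 1.35 SE, adjusted p = 6.6e-07). Rgs4 and Rgs5, regulators of G-protein signalling, differed by 11.42 and 10.11 on the log2 scale. The groups did not overlap for any of these 4 genes, and mouse 53072 was the lowest PDGFRb library for each. Kcnj8, a subunit of the pericyte ATP-sensitive potassium channel, stood at 2019, 1705, 1002 and 481 CPM against 1.51, 2.25, 2.69, 1.81 and 1.27 (log2 difference 9.42 ± 1.28 SE, adjusted p = 5.6e-06). Its partner subunit Abcc9 differed less than normally: it stood at 30.7, 26.8, 15.2, 25.6 and 37.4 CPM in the CD31 breast libraries against 0.227 to 1.12 in the CD31 non-tumor libraries, and at 294, 574, 381 and 257 in the PDGFRb breast libraries. Its log2 difference was 3.79 in breast metastasis and 10.1 in non-tumor brain, a change of -6.3 ± 1.26 (SE, adjusted p = 0.0024). The transcription factor genes Tbx18 and Zic1 had 2 and 0 counts in all CD31 breast libraries together. Tbx18 was 3960-fold (95% counting interval 1090 to 32700) higher in the mural sort, and Zic1 at least 648-fold higher against a floor of 3 counts over the group. Notch3, a receptor that mural cells need for their maturation, stood at 364, 343, 341 and 169 CPM against 7.2, 0.562, 0.973, 12.8 and 2.59 (log2 difference 5.97 ± 0.99 SE, adjusted p = 8.3e-05). Cd248 (endosialin), named by its size, stood at 1380, 1482, 1476 and 615 CPM against 0.161 to 0.966 (log2 difference 11.08 ± 1.23 SE, adjusted p = 3.4e-07). Anpep, which encodes a surface aminopeptidase, lost its normal call, and for it, as for Abcc9, the change was called toward CD31. In FPKM, fragment values corrected for gene length and library size, Vtn was the most abundant of the named pericyte genes in the PDGFRb breast libraries at 2669 ± 970 (SD, n = 4). Rgs5 stood at 614 ± 195, Kcnj8 at 548 ± 266, Rgs4 at 388 ± 195 and Cspg4 at 147 ± 83.6. The spreads of Rgs5, Kcnj8 and Rgs4 overlapped, as did those of Rgs4 and Cspg4.

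Contractile genes also stayed mural, with 1 library above the rest. Of 22 smooth muscle genes 17 were higher in the mural sort and 1, Smtn, was lower, and 16 of 19 normal calls were kept. The median log2 difference of the list was smaller than normally, 4.39 against 7.33 in non-tumor brain. Acta2, smooth muscle actin, stood at 6211, 2275, 3010 and 1402 CPM in the PDGFRb libraries and at 4.85, 4.18, 2.46, 2.22 and 4.58 in the CD31 libraries (log2 difference 9.78 ± 1.28 SE, adjusted p = 3.5e-06). Tagln, an actin-binding protein of smooth muscle, stood at 2557, 696, 940.1 and 446 against 1.51, 2.65, 1.77, 1.34 and 1.83 CPM (log2 difference 9.32 ± 1.24 SE, adjusted p = 4.3e-06). Myh11, smooth muscle myosin, stood at 623, 99, 113 and 113 CPM against at most 0.141 (log2 difference 11.62 ± 1.31 SE, adjusted p = 4.3e-07), and Actg2, an actin of visceral muscle, at 791, 131, 212 and 53.4 against at most 0.848 (log2 difference 10.48 ± 1.54 SE, adjusted p = 1.6e-05). Mouse 51950 was the highest PDGFRb library for these 4 genes, and the groups did not overlap. Casq2, a calcium-storing protein, was lowest in that same library, at 2.32, 84.4, 274 and 58.3 CPM (log2 difference 10.71 ± 1.82 SE, adjusted p = 0.00019). Cnn1 had 2 counts in the CD31 libraries and was 1440-fold (95% counting interval 398 to 11900) higher in the mural sort. Cald1, an actin regulator, showed a smaller difference than normally, 2.11 against 4.55, a change of -2.44 ± 0.5 (SE, adjusted p = 0.0028). Its CD31 libraries stood at 230.5 to 349.8 CPM in breast metastasis and 44.5 to 60.5 in non-tumor brain. Smtn (smoothelin) stood at 95.5, 332, 244 and 141 against 396, 584, 588, 286 and 578 CPM, overlapping, and was lower in the mural sort, with a log2 difference of -1.26 ± 0.34 (SE, adjusted p = 0.011) and no call in non-tumor brain (log2 difference 0.5 ± 0.31 SE, adjusted p = 0.28). The change of Smtn was -1.76 ± 0.46 (SE, adjusted p = 0.021), with an adjusted p of 0.051 with the block. Limma-voom, another test run on all genes, called 11 smooth muscle genes higher and 2 lower.

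**Figure D3:**
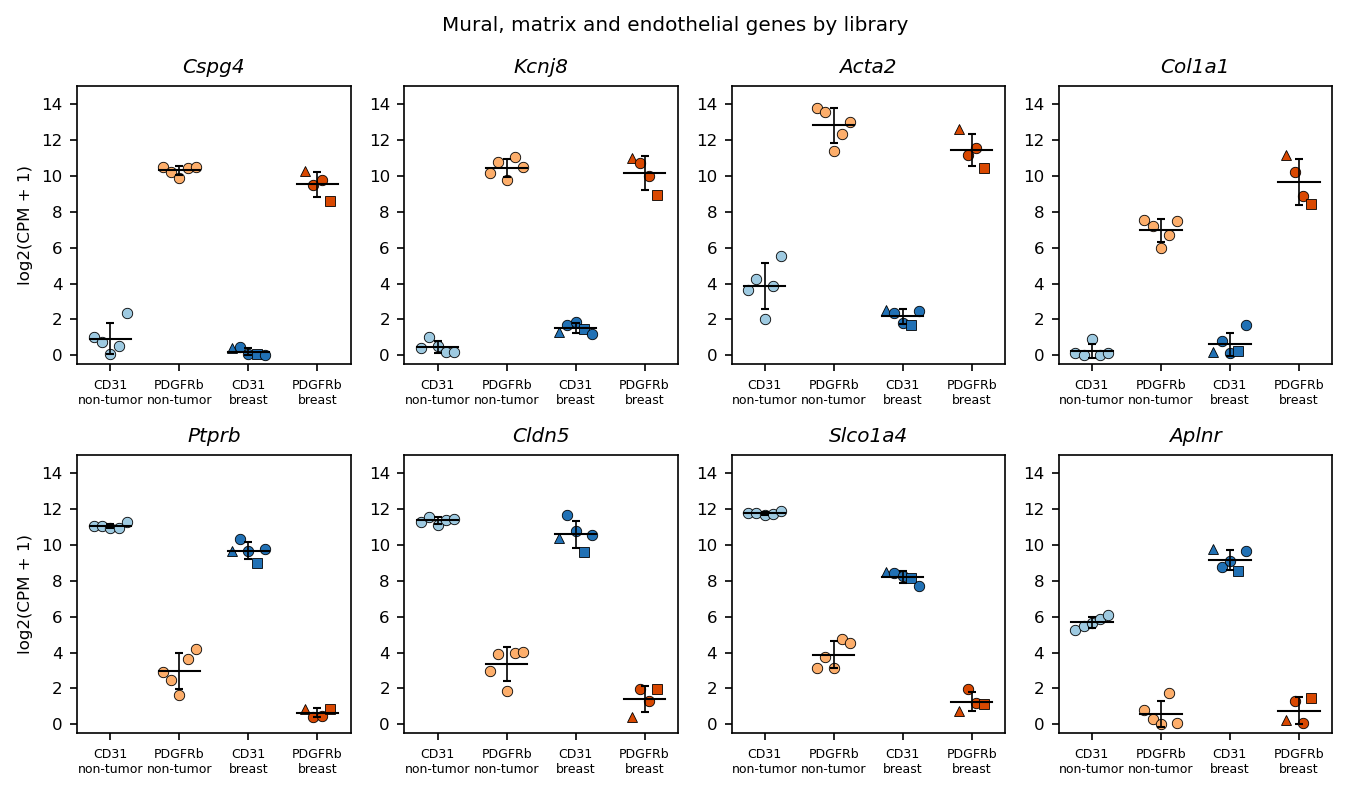
Log2(CPM + 1) of 8 genes in every library of the 4 groups; bars are the mean and SD, triangles mark mouse 51950 and squares mouse 53072. Cspg4, Kcnj8, Acta2 and Col1a1 are high in both PDGFRb groups and Ptprb, Cldn5, Slco1a4 and Aplnr in both CD31 groups, without overlap between the sorts of either condition.

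Every gene of the endothelial core list kept its normal side. All 24 were lower in the PDGFRb sort in both conditions, with a median log2 difference of -8.4 in breast metastasis and -7.59 in non-tumor brain. With the block 23 of them were called. The list includes Pecam1, the gene of the CD31 gate, whose side was set by the sort and is no finding. Ptprb, the vascular endothelial phosphatase VE-PTP, stood at 819, 1278, 818, 505 and 858 CPM in the CD31 libraries and at 0.83, 0.319, 0.379 and 0.785 in the PDGFRb libraries (log2 difference -10.62 ± 0.75 SE, adjusted p = 2.1e-10). Cldn5, the chief tight-junction claudin of brain endothelium, stood at 1330, 3273, 1737, 763 and 1507 CPM against 0.332, 2.87, 1.43 and 2.92 (log2 difference -9.77 ± 0.67 SE, adjusted p = 1.3e-10). Kdr, the main VEGF receptor, stood at 1463, 1223, 1687, 986 and 1937 against 1.33, 15.3, 1.6 and 7.06 CPM (log2 difference -7.83 ± 1.03 SE, adjusted p = 3.8e-06). For these 3 genes no PDGFRb library reached the CD31 group. Mmrn2 and the transcription factor Sox18 differed by -10.18 and -10.03, and Sox17 had 2 counts in the PDGFRb libraries and was 1110-fold (95% counting interval 306 to 9150) higher in the CD31 sort. Cdh5 (VE-cadherin) was at 78.9, 7.5, 1.56 and 3 CPM in the PDGFRb libraries, highest in mouse 51950, against 250.0 to 1004 in the CD31 libraries. Its log2 difference of -4.73 ± 0.92 (SE, adjusted p = 0.00058) was -7.26 without the PDGFRb library of mouse 51950. Flt1 and Tie1, a decoy VEGF receptor and an angiopoietin co-receptor, remained endothelial with a smaller difference. Flt1 stood at 379.5, 322, 200.3 and 152 CPM in the PDGFRb breast libraries against 29.2 to 71.8 in the PDGFRb non-tumor libraries, and at 1459, 2501, 1651, 1111 and 1896 in the CD31 breast libraries against 4329 to 4910. Its log2 difference was -2.71 in breast metastasis and -6.68 in non-tumor brain, a change of 3.98 ± 0.44 (SE, adjusted p = 1.6e-06). Tie1 changed by 3.13 ± 0.79 (SE, adjusted p = 0.016) and missed the threshold with the block (adjusted p = 0.11) or without the PDGFRb library of mouse 51950 (adjusted p = 0.067), in which it was highest at 177 CPM. The difference of Ptprb was larger than normal, with a change of -2.65 ± 0.71 (SE, adjusted p = 0.023), which missed the threshold with the block (adjusted p = 0.23) and without PDGFRb breast mouse 52865 or PDGFRb non-tumor mouse 56740 (adjusted p of 0.051 and 0.056). In non-tumor brain Ptprb stood at 1954 to 2440 CPM in the CD31 libraries, above the CD31 breast ones. Its PDGFRb libraries stood at 2.072 to 17.65 CPM there, and the PDGFRb breast libraries held only 31 counts of it together.

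Transporters of the blood-brain barrier were called on the endothelial side in both conditions. Of 24 barrier transport genes 20 were lower in the PDGFRb sort of breast metastasis and none was higher, and 20 of 22 normal calls were kept. Slco1a4, an organic anion transporter, stood at 358, 347, 303, 283 and 207 CPM in the CD31 libraries and 0.664, 2.98, 1.3 and 1.21 in the PDGFRb libraries, against 3247 to 3765 and 7.9 to 26.2 in non-tumor brain. Its log2 difference was -7.54 ± 0.65 (SE, adjusted p = 5.7e-09), and its change of 0.28 ± 0.67 (SE, adjusted p = 0.92) was not called. Abcb1a, the efflux pump P-glycoprotein, stood at 163, 258, 147, 132 and 153 CPM against 2.16, 7.23, 1.51 and 2.57 (log2 difference -5.64 ± 0.75 SE, adjusted p = 4.4e-06), and at 1110 to 1265 in the CD31 non-tumor libraries. Mfsd2a, the lipid transporter that restrains transcytosis, stood at 325, 250.2, 235, 194 and 165 CPM against 0.166, 1.81, 1.35 and 3.85 (log2 difference -6.97 ± 0.82 SE, adjusted p = 7.9e-07). None of these 3 genes overlapped between the sorts, and for each the CD31 breast libraries also lay below the CD31 non-tumor ones, a difference between conditions that was not tested. The amino acid transporter Slc38a5 and the drug efflux pump Abcc4 differed by -8.71 and -7.03, and Slc19a3, a thiamine transporter with 0 counts in the PDGFRb breast libraries, was at least 386-fold higher in the CD31 sort. For 6 genes of the list, or 3 with the block, the change was called toward PDGFRb, among them Slc2a1, the glucose transporter GLUT1. Slc2a1 stood at 2093, 5669, 1248, 1311 and 1086 CPM in the CD31 and 175, 314, 65 and 112 in the PDGFRb libraries, and its difference narrowed from -5.85 to -3.77, a change of 2.08 ± 0.54 (SE, adjusted p = 0.02). Without the PDGFRb breast library of mouse 52599, its highest, the change was 1.48 (adjusted p = 0.087). Lrp8, the apolipoprotein E receptor 2, was the 1 gene with a change toward CD31. It stood at 152, 258, 130.0, 129 and 128 CPM in the CD31 and 0.166, 3.88, 0.715 and 1.78 in the PDGFRb breast libraries, against 11.4, 0.257, 84.8, 19 and 11.2 in the PDGFRb non-tumor libraries, a change of -3.55 ± 1.06 (SE, adjusted p = 0.043). That change missed the threshold in 14 of 19 fits without 1 library (adjusted p of 0.052 to 0.15) and with the block (adjusted p = 0.34). Plvap, a protein of fenestrated and leaky vessels, was more abundant in the CD31 breast libraries (118, 155, 263, 117 and 266 CPM) than in the PDGFRb ones (45.3, 6.44, 12.4 and 7.85), a log2 difference of -3.37 ± 0.81 (SE, adjusted p = 0.0043), with an adjusted p of 0.056 with the block. Its non-tumor difference was -3.27, at 9.39 to 18.9 CPM in the CD31 libraries.

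Junction genes split. Of 16 measured, 10 were lower in the PDGFRb sort and none was higher, and 8 of 13 normal calls were kept. With the block 6 were lower and 5 of the 13 were kept. Among all genes tested, without the block, 7.51% were lower and 9% higher, and 37.7% of normal calls were kept. Lsr, a protein of tricellular junctions that epithelia also express, stood at 0.332, 49.6, 77.3 and 147 CPM in the PDGFRb and 531, 367, 269, 346 and 283 in the CD31 breast libraries. In non-tumor brain it stood at 6.44 to 14.6 and 1136 to 1460 CPM. Its difference narrowed from -6.89 to -2.39, a change of 4.5 ± 0.81 (SE, adjusted p = 0.00079), with adjusted p of 0.073 for the difference and 0.18 for the change with the block. In the PDGFRb libraries both Lsr and the epithelial sum were lowest in mouse 51950 and highest in mouse 53072, and the part of epithelial RNA in the result was not tested. Cdh2, the N-cadherin of endothelial-mural contacts, lay on opposite sides in the 2 conditions. It was at 3.15, 53.1, 57.5 and 28.7 CPM in the PDGFRb and 96.1, 98.7, 108, 88.9 and 151 in the CD31 breast libraries, and at 62.4, 54.4, 126, 161 and 114 against 22.5, 28.4, 27.8, 25.4 and 31.3 in non-tumor brain. The difference was -1.6 ± 0.52 (SE, adjusted p = 0.034) in breast metastasis and 1.93 ± 0.49 (SE, adjusted p = 0.0033) in non-tumor brain, a change of -3.54 ± 0.72 (SE, adjusted p = 0.0027). The breast call was lost with the block (adjusted p = 0.063) and without CD31 mouse 52865, CD31 mouse 53142 or PDGFRb mouse 53072 (adjusted p of 0.054 to 0.08). Gja1, the gap junction protein connexin 43, stood at 126, 61.4, 13.4 and 36.9 CPM against 418, 366, 475, 273 and 486 in breast metastasis (log2 difference -2.77 ± 0.56 SE, adjusted p = 0.00092) and was not called in non-tumor brain (log2 difference 1.22 ± 0.49 SE, adjusted p = 0.065), a change of -3.99 ± 0.74 (SE, adjusted p = 0.0011).

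Genes of sprouting endothelium were called only on the CD31 side of breast metastasis. Of 24 tip and angiogenic genes 15 were lower in the PDGFRb sort of breast metastasis and none was higher. In non-tumor brain 10 were lower and 5 higher, and the change was called toward CD31 for 7 genes and toward PDGFRb for 1, Plaur. With the block 14 genes were lower, and 3 changes toward CD31 and 1 toward PDGFRb were called. Among all genes tested, without the block, 7.51% were lower and 9% higher in breast metastasis, and 10.5% and 17.4% in non-tumor brain. The change was called toward CD31 for 3.57% of all genes. Apln, which encodes the ligand apelin, stood at 199, 208, 336, 249 and 587 CPM in the CD31 and 0.166, 0.372, 0 and 1.28 in the PDGFRb breast libraries. In non-tumor brain it stood at 8.45, 5.72, 9.65, 5.71 and 8.28 and 1.83, 1.34, 19.3, 3.4 and 11.6 CPM, overlapping. Its log2 difference was -9.42 ± 1.04 (SE, adjusted p = 3.1e-07) in breast metastasis and -0.01 in non-tumor brain, a change of -9.4 ± 1.15 (SE, adjusted p = 5.6e-06). Aplnr, the apelin receptor, stood at 876, 438, 545, 367 and 800.2 against 0.166, 1.49, 0.0421 and 1.78 CPM (log2 difference -9.38 ± 1.14 SE, adjusted p = 1.1e-06), and was on the same side in non-tumor brain (log2 difference -6.26 ± 0.91 SE, adjusted p = 5.6e-06). Esm1, which encodes endocan, stood at 208, 314, 570.3, 246 and 664 CPM in the CD31 breast libraries against 5.6 to 14.6 in the CD31 non-tumor libraries, and did not exceed 0.505 in the PDGFRb breast libraries (log2 difference -10.23 ± 1.38 SE, adjusted p = 5.2e-06). The change of Esm1 was -7.13 ± 1.44 (SE, adjusted p = 0.0026), with an adjusted p of 0.12 with the block. Flt4, the receptor of VEGF-C, differed by -9.87 and -8.0 in the 2 conditions. Angpt2, the antagonist of angiopoietin-1 at the Tie2 receptor, changed side. It stood at 257, 367, 383, 348 and 769.5 CPM in the CD31 and 111, 144, 97.6 and 41.7 in the PDGFRb breast libraries, and at 35.7, 33.6, 46.8, 40.5 and 36.2 against 167, 180.1, 46.1, 101 and 126 in non-tumor brain. The difference was -2.11 ± 0.68 (SE, adjusted p = 0.034) in breast metastasis and 1.69 ± 0.62 (SE, adjusted p = 0.043) in non-tumor brain, a change of -3.79 ± 0.93 (SE, adjusted p = 0.012). The breast call was lost without CD31 mouse 53142 or without PDGFRb mouse 51950, 52865 or 53072 (adjusted p of 0.057 to 0.093), and with the block both it and the change missed the threshold (adjusted p of 0.14 and 0.094). Cxcr4, a chemokine receptor, stood at 13.8, 28.2, 41.3, 12.5 and 43.6 CPM in the CD31 and 0, 5.8, 7.4 and 6.78 in the PDGFRb breast libraries. These did not overlap, yet the gene was not called in breast metastasis (log2 difference -2.47 ± 0.92 SE, adjusted p = 0.066), and it was normally mural (log2 difference 3.19 ± 0.92 SE, adjusted p = 0.0096), a change of -5.65 ± 1.31 (SE, adjusted p = 0.0084), or an adjusted p of 0.073 with the block.

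**Figure D4:**
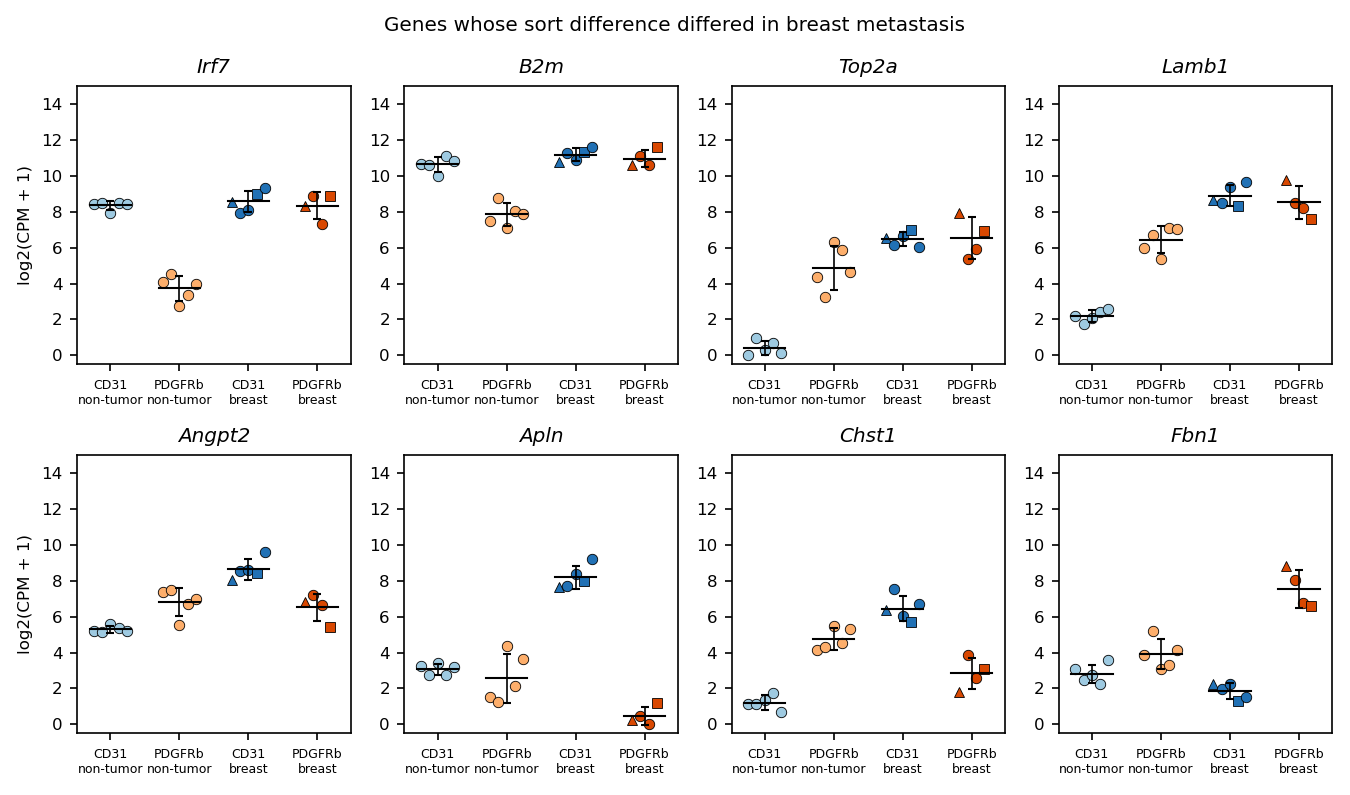
Log2(CPM + 1) of 8 genes in every library of the 4 groups, with mean and SD; triangles mark mouse 51950 and squares mouse 53072. Irf7, B2m, Top2a and Lamb1 overlap between the breast sorts but not between the non-tumor sorts, while Apln, Angpt2, Chst1 and Fbn1 do not overlap between the breast sorts.

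Receptors and ligands of the exchange between the cell types were counted apart. Of 32 receptors 26 were called in breast metastasis, 6 higher and 20 lower in the mural sort, and 24 of 29 normal calls were kept. These receptors include Pdgfrb, which defined the mural sort, so its call is no finding. Of 32 ligands 17 were called, 4 higher and 13 lower, and 13 of 26 normal calls were kept, while 2, Angpt2 and Bmp6, were called the opposite way. The difference between the 2 lists was not tested. Among all genes tested 9% were higher and 7.51% lower in breast metastasis, and 37.7% of normal calls were kept. Without the CD31 library of mouse 51950 or that of mouse 53142, 2 ligands were higher in the mural sort, without that of mouse 53072 it was 6, and with the block it was 1 higher and 11 lower. Pdgfb, the endothelial ligand of PDGFRb, stood at 209, 389, 365, 158 and 408 CPM in the CD31 and 0.166, 4.15, 25.6 and 5.06 in the PDGFRb breast libraries, without overlap (log2 difference -5.1 ± 0.66 SE, adjusted p = 2.6e-06), and its change of -1.38 ± 0.74 (SE, adjusted p = 0.32) was not called. Without the PDGFRb library of mouse 52865, its highest, the change was -2.91 (adjusted p = 0.0041). Its receptor Pdgfrb defined the other sort. Tek, the angiopoietin receptor Tie2, stood at 513, 376, 374, 211 and 351 against 0, 4.36, 0 and 0.214 CPM (log2 difference -8.2 ± 1.27 SE, adjusted p = 3.5e-05). Angpt1, the mural ligand of Tek, was low in both breast sorts, at 0, 3.72, 1.43 and 5.28 CPM in the PDGFRb and 0.424, 0, 2.06, 0.35 and 0.508 in the CD31 libraries, against 13.3 to 33.3 in the PDGFRb non-tumor libraries. It was called in non-tumor brain (log2 difference 4.38 ± 1.34 SE, adjusted p = 0.016) and not in breast metastasis (log2 difference 1.96 ± 1.27 SE, adjusted p = 0.33), and its change was not called (adjusted p = 0.52). The Notch ligands Dll4 and Jag2 were endothelial in both conditions, with breast differences of -7.58 ± 0.88 (SE, adjusted p = 5.8e-07) and -7.75 ± 0.82 (SE, adjusted p = 1.5e-07). Sema3g, a semaphorin of arterial endothelium, had 0 counts in the PDGFRb libraries and was at least 905-fold higher in the CD31 sort. S1pr3 and S1pr1, receptors of sphingosine-1-phosphate, lay on opposite sides, with log2 differences of 9.88 ± 1.61 (SE, adjusted p = 6.7e-05) and -6.21 ± 0.88 (SE, adjusted p = 1e-05). S1pr1 was at 0.498, 11.2, 16.3 and 12.3 CPM in the PDGFRb breast libraries against 31, 101, 585, 369 and 466 in the PDGFRb non-tumor ones. Its difference was wider than the normal -2.59, a change of -3.62 ± 0.96 (SE, adjusted p = 0.023). With the block the adjusted p of that change was 0.2. Vegfa, the main angiogenic factor, stood at 3.65, 41.4, 26.5 and 40.7 CPM in the PDGFRb and 9.51, 8.6, 1.15, 33.7 and 2.03 in the CD31 breast libraries, overlapping, and was not called (log2 difference 1.35 ± 0.74 SE, adjusted p = 0.23). Without the CD31 library of mouse 53072, its highest, the difference was 2.4 (adjusted p = 0.026). Its non-tumor difference was 4.13 ± 0.8 (SE, adjusted p = 0.00023).

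Fibrillar matrix genes were higher in the mural sort in both conditions. Of 32 interstitial matrix genes 26 were higher in the PDGFRb sort of breast metastasis and none was lower, with a median log2 difference of 5.72 against 4.82 in non-tumor brain, and 23 of 27 normal calls were kept. Markers of perivascular fibroblasts, whose list shares collagens and proteoglycans with this one, were higher for 14 of 21 genes and lower for 1, and 14 of 18 normal calls were kept. Their median log2 difference was 5.86, against 8.83 in non-tumor brain. Whether the reporter-positive cells held fibroblasts beside pericytes was not tested. Col1a1, the main chain of type I collagen, stood at 2312, 1175, 460.5 and 342 CPM in the PDGFRb breast libraries and 181, 144, 61.5, 105 and 175 in the PDGFRb non-tumor ones, and did not exceed 2.24 in any CD31 breast library (log2 difference 10.6 ± 1.3 SE, adjusted p = 1.4e-06). Col6a3, a chain of type VI collagen, stood at 766, 589, 300.4 and 268 CPM against at most 0.508 (log2 difference 11.15 ± 1.3 SE, adjusted p = 6.8e-07). Both collagens were highest in mouse 51950 and lowest in mouse 53072. Lum (lumican) and Loxl1, an enzyme that cross-links elastic fibres, had 3 and 2 counts in the CD31 breast libraries and were 2050-fold (95% counting interval 703 to 9970) and 1960-fold (95% counting interval 543 to 16200) higher in the mural sort, with Lum at 0 in the PDGFRb library of mouse 52865. Fbn1, the microfibril protein fibrillin-1, and Col14a1, a fibril-associated collagen, were called in breast metastasis but not normally. Fbn1 stood at 447, 263, 106 and 94.7 CPM against 3.81, 2.89, 3.78, 1.46 and 1.83 (log2 difference 6.36 ± 1.07 SE, adjusted p = 0.0001), and Col14a1 at 42.2, 38.6, 30 and 21 against 0.0942, 2.09, 0, 0.817 and 0.254 (log2 difference 5.69 ± 1.23 SE, adjusted p = 0.0016). Their normal differences were 1.35 and -0.78. For Fbn1 the PDGFRb breast libraries lay above the PDGFRb non-tumor ones (7.43 to 35.3), and for Col14a1 the CD31 breast libraries lay below the CD31 non-tumor ones (20.3 to 49.4). The changes were 5.01 ± 1.28 (SE, adjusted p = 0.017) and 6.47 ± 1.54 (SE, adjusted p = 0.01), with adjusted p of 0.091 and 0.098 with the block.

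For 3 genes alone among the 3227 normally mural ones the change was called toward a wider mural difference. Mmp11, the metalloproteinase stromelysin-3, stood at 422, 320.4, 105 and 48.7 CPM in the PDGFRb and 3.15, 3.29, 0.229, 0.583 and 1.73 in the CD31 libraries, a difference of 6.96 against a normal 2.59 and a change of 4.37 ± 1.09 (SE, adjusted p = 0.015). Efemp2 (fibulin-4) stood at 139, 401, 267 and 132 against 15.7, 17.3, 20.1, 5.83 and 13 CPM and changed by 2.09 ± 0.51 (SE, adjusted p = 0.012). Rcn3, a calcium-binding protein of the endoplasmic reticulum, stood at 439, 277, 133 and 89.8 against 12.1, 8.03, 4.12, 3.33 and 4.83 CPM and changed by 2.33 ± 0.68 (SE, adjusted p = 0.037). Mean PDGFRb levels in breast metastasis and non-tumor brain were 224.1 and 38.67 CPM for Mmp11, 234.7 and 230.2 for Efemp2, and 234.7 and 259.5 for Rcn3. Mean CD31 levels were 1.798 and 6.421, 14.37 and 60.01, and 6.482 and 36.23 CPM, lower in breast metastasis for all 3 genes. These differences between conditions were not tested. With the block the change of Efemp2 was called (adjusted p = 0.0075) and those of Mmp11 and Rcn3 were not (0.057 and 0.073). The change of Efemp2 missed the threshold without PDGFRb breast mouse 52599 (adjusted p = 0.053), and that of Rcn3 in 13 of 19 fits without 1 library (0.05 to 0.087).

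Fewer basement membrane genes were called between the sorts of breast metastasis than between those of non-tumor brain. Of 23 measured, 4 were higher in the mural sort and 2 lower in breast metastasis, against 11 and 3 in non-tumor brain, and 6 of 14 normal calls were kept. Calls were fewer over all genes tested too, at 9% higher and 7.51% lower against 17.4% and 10.5%. Of all normal calls 37.7% were kept. The median log2 difference of the list was 0.1, against 2.18 in non-tumor brain, and all 6 called changes were toward CD31, with 1 called with the block. Without the PDGFRb library of mouse 51950, 5 genes were lower. Lamb1, the laminin beta-1 chain, stood at 862, 358, 297 and 193 CPM in the PDGFRb and 402, 356, 667, 314 and 806 in the CD31 breast libraries, which overlapped. In non-tumor brain it stood at 62.5, 105, 39.7, 135 and 131 against 3.6, 2.3, 3.23, 4.31 and 4.96 CPM, without overlap. The difference went from 4.68 ± 0.41 (SE, adjusted p = 2.1e-09) to -0.25 ± 0.37 (SE, adjusted p = 0.72), a change of -4.93 ± 0.55 (SE, adjusted p = 1.6e-06). Col4a1, the main chain of the basement membrane's type IV collagen, was at 6628, 6385, 5649 and 2393 CPM in the PDGFRb and 4617, 3954, 5965, 2995 and 7054 in the CD31 libraries, and was called in neither condition (log2 difference 0.1 ± 0.49 SE, adjusted p = 0.93 in breast metastasis). Both sorts stood above non-tumor brain, at 480.0 to 1295 and 924 to 1251 CPM. Lama2 and Lamc3, laminin chains, remained mural, with differences of 9.37 ± 1.16 (SE, adjusted p = 1.6e-06) and 6.42 ± 1.18 (SE, adjusted p = 0.00028), and Col4a6 with 3 counts in the CD31 libraries was 503-fold (95% counting interval 172 to 2440) higher in the mural sort. Hspg2 (perlecan) was lower in the mural sort (log2 difference -2.0 ± 0.37 SE, adjusted p = 0.0003), and Lama3 with 2 counts in the PDGFRb libraries was 653-fold (95% counting interval 181 to 5400) higher in the CD31 sort.

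Interferon response genes, normally a mark of the endothelial sort, were not called between the sorts of breast metastasis. In non-tumor brain 34 of 41 were lower in the PDGFRb sort and 1, Irf8, was higher, with a median log2 difference of -3.01. In breast metastasis edgeR called 0 of 41 and the median was -0.4. At an unadjusted p under 0.05, 4 were lower and none higher, DESeq2 called 1 lower and limma-voom 9. The change was called toward PDGFRb for 23 genes and toward CD31 for none, and for 19 and none with the block. The mean log2(CPM + 1) of the list was 3.3 ± 0.45 in the PDGFRb and 6.22 ± 0.18 in the CD31 non-tumor libraries (SD, n = 5 each). It was 5.86 ± 1.14 (n = 4) and 6.74 ± 0.62 (n = 5) in breast metastasis. Irf7, a transcription factor that amplifies the interferon response, stood at 314, 469, 159 and 469 CPM in the PDGFRb and 372, 245, 277, 512 and 645 in the CD31 breast libraries, overlapping. In non-tumor brain it stood at 16, 21.8, 5.81, 9.19 and 14.5 against 348, 356, 242, 356 and 338 CPM, and no library of 1 sort reached the other. The difference went from -4.61 to -0.22, a change of 4.39 ± 0.52 (SE, adjusted p = 3.9e-06). Parp14, the member with the smallest breast p, changed by 1.6 ± 0.42 (SE, adjusted p = 0.021), with a breast difference of -0.86 ± 0.31 (SE, adjusted p = 0.059) and no overlap between the breast sorts. The change of Parp14 was lost in 3 of 19 fits without 1 library, without PDGFRb breast mouse 52599 or PDGFRb non-tumor mouse 54135 or 56727, at adjusted p of 0.057 to 0.061. Parp14 itself was called lower in the mural sort of breast metastasis without CD31 mouse 51950, PDGFRb mouse 51950 or PDGFRb non-tumor mouse 54135 (adjusted p of 0.026 to 0.046). Gbp4, a guanylate-binding protein from a family of near copies and thus uncertain, stood at 0.332, 48.8, 24.5 and 85.7 CPM in the PDGFRb and 76.3, 122, 65.6, 204 and 226 in the CD31 breast libraries, and at 0.0632 to 2.11 against 188 to 219 in non-tumor brain, a change of 6.71 ± 1.17 (SE, adjusted p = 0.00054).

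MHC class I and antigen processing genes gave a like count. This list of 18 shares Psmb8 and Psmb9 with the interferon list. In non-tumor brain 16 of 18 genes were lower in the PDGFRb sort, with a median of -2.86. In breast metastasis edgeR and DESeq2 called 0 and voom 1, none passed at an unadjusted p under 0.05, and the median was -0.37. The change was called toward PDGFRb for 10 genes, and for 8 with the block. B2m, the shared light chain of class I, stood at 1552, 2159, 1528 and 3077 CPM in the PDGFRb and 1714, 2487, 1898, 2604 and 3115 in the CD31 breast libraries, and at 179.6, 435, 136, 260.4 and 231 against 1584, 1574, 1015, 2156 and 1816 in non-tumor brain. The breast sorts overlapped and the non-tumor sorts did not. The difference went from -2.71 ± 0.33 (SE, adjusted p = 5.3e-07) to -0.18 ± 0.33 (SE, adjusted p = 0.78), a change of 2.53 ± 0.46 (SE, adjusted p = 0.0009). The heavy chains H2-D1 and H2-K1 changed by 2.72 ± 0.39 (SE, adjusted p = 4.7e-05) and 2.81 ± 0.52 (SE, adjusted p = 0.0012), and H2-Q6, with the smallest breast p of the list, by 3.12 ± 0.94 (SE, adjusted p = 0.045). Heavy chains are near copies that share reads, so their separate values are uncertain. The change of H2-Q6 missed the threshold in 15 of 19 fits without 1 library (adjusted p of 0.056 to 0.13). Across the PDGFRb breast libraries H2-K1 stood at 654, 2167, 2118 and 4765 CPM, lowest in mouse 51950 and highest in mouse 53072, the order of the epithelial sum at both ends. Its part in these levels was not tested. Without both libraries of mouse 53072, the change was still called for 19 interferon and 6 MHC class I genes, and without both of mouse 51950 for 25 and 14.

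Cell cycle genes were called higher in the mural sort of non-tumor brain and were not called between the sorts of breast metastasis. In non-tumor brain 24 of 36 proliferation genes were higher in the mural sort, with a median log2 difference of 3.64, and in breast metastasis edgeR and DESeq2 called 0, voom called 1 lower and the median was -0.46. At an unadjusted p under 0.05, 1 was higher and 2 were lower. The change was called toward CD31 for 19 genes, and for 12 with the block. Top2a, a topoisomerase of dividing cells, stood at 246, 39.9, 59.3 and 122 CPM in the PDGFRb and 92.6, 69.3, 100, 126 and 64.3 in the CD31 breast libraries, overlapping. In non-tumor brain it stood at 19.3, 8.59, 79.2, 57 and 23.5 against 0, 0.933, 0.227, 0.641 and 0.102 CPM, and mouse 54135 was the highest of the PDGFRb libraries. The difference went from 6.63 ± 0.81 (SE, adjusted p = 4.6e-07) to 0.37 ± 0.65 (SE, adjusted p = 0.77), a change of -6.26 ± 1.02 (SE, adjusted p = 0.00026). Ccnb2, a mitotic cyclin and the member with the smallest breast p, stood at 321, 95.9, 86.9 and 77.1 against 67.4, 62.4, 77.9, 76.6 and 56 CPM, with mouse 51950 the highest (log2 difference 1.09 ± 0.47 SE, adjusted p = 0.11). Aurkb, a mitotic kinase, and Mki67, the Ki-67 antigen, changed by -8.08 ± 1.29 (SE, adjusted p = 0.00022) and -5.37 ± 1.43 (SE, adjusted p = 0.023), the latter at an adjusted p of 0.058 with the block. Pclaf, a PCNA-associated factor of replicating cells, stood at 136, 36.9, 36.6 and 80.5 against 74.1, 49.7, 82.8, 63 and 58.2 CPM in breast metastasis and 8.18 to 66.8 against 0.161 to 0.307 in non-tumor brain, a change of -6.86 ± 0.73 (SE, adjusted p = 1.2e-06). In the PDGFRb non-tumor libraries the proliferation list's mean log2(CPM + 1) was 3.81, 2.46, 5.1, 4.77 and 3.77, in the order of mice 53680, 54132, 54135, 56727 and 56740, and that of a list of neuron genes was 3.85, 1.08, 6.2, 4.49 and 3.58. Both were highest in mouse 54135 and lowest in mouse 54132. In the PDGFRb breast libraries the proliferation list's level was 3.41, 5.02, 4.96 and 5.72, lowest in mouse 51950 and highest in mouse 53072, as was the epithelial sum. Top2a, Ccnb2 and Pclaf were instead highest in mouse 51950, in which 9174 genes were detected. The part of RNA of neural or tumor cells in these levels was not tested.

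By the rule for named genes, the largest called losses or reversals of a normal mural difference, among genes with a mean of at least 3 log2 CPM over the 19 breast and non-tumor libraries, were those of F3, Tgfbi, Chst1, Sntb1, Pclaf and Fgf1. F3, the coagulation starter tissue factor, stood at 99.3, 177, 67.3 and 193 CPM in the PDGFRb and 29.3, 5.38, 9.44, 130.1 and 3.2 in the CD31 breast libraries, against 71.1 to 342 and 0 to 0.56 in non-tumor brain, a change of -8.86 ± 1.74 (SE, adjusted p = 0.002). In the CD31 libraries it was highest in mouse 53072, as the epithelial sum was, and without that library the breast difference was 3.5 (adjusted p = 0.024). Tgfbi, a matrix protein induced by TGF-beta, stood at 399, 166, 217 and 60.6 against 81.2, 60.9, 64.5, 31.3 and 126 CPM, overlapping, and at 73.3 to 181 against 0 to 0.227 in non-tumor brain, a change of -8.78 ± 1.05 (SE, adjusted p = 3.9e-06). Without PDGFRb mouse 53072 its breast difference of 1.53 became 1.84 (adjusted p = 0.036). Chst1, a sulfotransferase that modifies keratan sulfate, changed side: it stood at 81.4, 181, 63.9, 50.3 and 102 CPM in the CD31 and 2.49, 13.7, 4.96 and 7.63 in the PDGFRb breast libraries, and at 1.18, 1.18, 1.59, 2.39 and 0.613 and 16.5, 18.6, 43.8, 21.7 and 39 in non-tumor brain. The sorts did not overlap in either condition, with differences of -3.72 ± 0.69 (SE, adjusted p = 0.0003) and 4.32 ± 0.65 (SE, adjusted p = 9.6e-06) and a change of -8.04 ± 0.95 (SE, adjusted p = 3.7e-06), also called with the block (adjusted p = 0.0011). Sntb1, a syntrophin, changed by -6.93 ± 1.31 (SE, adjusted p = 0.0014), with CD31 breast libraries at 21.9, 2.17, 8.19, 55 and 9.2 CPM, highest in mouse 53072. Fgf1, a growth factor, changed by -6.76 ± 1.43 (SE, adjusted p = 0.0039), or an adjusted p of 0.058 with the block, and its PDGFRb libraries stood at 0, 34.6, 15.1 and 29.8 CPM against 65.5 to 209 in non-tumor brain.

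By the same rule, the largest called losses of a normal endothelial difference were those of Pllp, Rab11fip1, Cd83, Ceacam1, Eps8l2 and Gbp4. Pllp (plasmolipin), a membrane protein, stood at 18.2, 15.8, 10.7, 16.9 and 7.78 CPM in the CD31 breast libraries against 436 to 499 in the CD31 non-tumor ones, and at 0, 16.9, 27.2 and 3.07 in the PDGFRb breast libraries, a change of 8.37 ± 1.26 (SE, adjusted p = 0.00011). Ceacam1, a cell adhesion molecule of endothelium, epithelium and leukocytes, stood at 116, 169, 352 and 410.4 CPM in the PDGFRb and 127, 50.5, 82.1, 338 and 66.5 in the CD31 breast libraries, against 0.766 to 13.5 and 287 to 324 in non-tumor brain. It changed by 6.93 ± 0.94 (SE, adjusted p = 2.9e-05), and mouse 53072 was its highest library in both breast sorts. Eps8l2, an actin regulator, changed by 6.88 ± 1.13 (SE, adjusted p = 0.00028) and also had its highest library of each breast sort in mouse 53072, at 0, 24.8, 37.9 and 93.4 CPM in the PDGFRb and 39.1, 14.1, 15.2, 65.7 and 11.3 in the CD31 libraries. The epithelial sums moved with both genes in that mouse, and the part of epithelial RNA was not tested. Rab11fip1, an effector of recycling endosomes, changed by 7.19 ± 1.17 (SE, adjusted p = 0.00025). Cd83, an immune cell surface protein, stood at 0, 9.04, 89 and 17.7 CPM in the PDGFRb breast libraries, highest in mouse 52865, which also had the highest macrophage and microglia sum, and at 3.01, 2.17, 0.801, 9.33 and 1.93 in the CD31 ones against 93.6 to 154 in the CD31 non-tumor libraries. It changed by 7.07 ± 1.55 (SE, adjusted p = 0.0053), and its breast difference of 3.07 ± 1.09 (SE, adjusted p = 0.053) passed the threshold without CD31 mouse 53072 (adjusted p = 0.029) or PDGFRb mouse 51950 (adjusted p = 0.015), and reached 0.05 without PDGFRb mouse 52599. With the block the change of Pllp, Rab11fip1 and Cd83 missed the threshold (adjusted p of 0.067, 0.063 and 0.2).

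The largest breast differences toward CD31 by the rule for named genes were those of Scgb3a1, Ptprb, Fgd5, Cyyr1, Prnd and Esm1. Scgb3a1, a secretoglobin, stood at 330.3, 479, 136, 119.6 and 184 CPM in the CD31 and 0, 0, 0 and 0.285 in the PDGFRb breast libraries (log2 difference -11.72 ± 1.06 SE, adjusted p = 1.5e-08), and had 1 count in the PDGFRb non-tumor libraries, where it was 2010-fold (95% counting interval 360.0 to 79500) higher in the CD31 sort. Prnd, which encodes the prion-like protein doppel, stood at 277, 184, 493, 332 and 727 against 0, 0, 0.0841 and 0.999 CPM (log2 difference -10.48 ± 1.18 SE, adjusted p = 4.1e-07), with 7.59 to 16.6 in the CD31 non-tumor libraries. Its change of -4.11 was not called (adjusted p = 0.069) but was called without PDGFRb breast mouse 53072, at -6.69 (adjusted p = 0.01), and reached -4.4 (adjusted p = 0.05) without PDGFRb non-tumor mouse 54132. Fgd5 and Cyyr1 differed by -10.57 and -10.54 in breast metastasis and by -8.22 and -8.13 in non-tumor brain. Cd93, a lectin-like receptor of angiogenic endothelium, stood at 1774, 2074, 2885, 1290 and 2919 CPM in the CD31 and 1.66, 4.47, 14.4 and 5.49 in the PDGFRb breast libraries, and at 571 to 704 against 12.6 to 38.5 in non-tumor brain, a change of -3.63 ± 0.69 (SE, adjusted p = 0.0015). Tspan18, a tetraspanin, changed by -4.56 ± 0.91 (SE, adjusted p = 0.0024). Both changes held with the block (adjusted p of 0.015 and 0.046).

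The change was called for 72 genes toward PDGFRb and 110 toward CD31 among those called in breast metastasis and not normally. From these the rule took the 4 largest breast differences per side, at a mean of at least 3 log2 CPM over the 19 breast and non-tumor libraries. Beyond those above, they were Map6 and Kctd7 on the mural side and Cttnbp2, Wscd1 and Rnd1 on the endothelial side. Cttnbp2, an actin-associated protein, stood at 46.9, 68.3, 49.1, 35.1 and 56.4 CPM in the CD31 and 0, 0.319, 0.379 and 3.57 in the PDGFRb libraries (log2 difference -5.54 ± 0.75 SE, adjusted p = 5.6e-06), a change of -5.26 ± 0.89 (SE, adjusted p = 0.00039), and its PDGFRb non-tumor libraries stood at 8.43 to 40.8 CPM. Rnd1 and Wscd1 stood without overlap too, with differences of -5.4 ± 0.68 (SE, adjusted p = 1.9e-06) and -5.41 ± 0.79 (SE, adjusted p = 1.5e-05) and changes of -4.16 and -4.43. With the block the change of Wscd1 had an adjusted p of 0.073 and that of Rnd1 0.035. Map6, a microtubule-stabilising protein, stood at 250.4, 31.8, 28 and 8.77 CPM against 5.42, 3.86, 3.38, 3.15 and 2.59, and Kctd7 at 231, 12.2, 14.8 and 6.78 against 5.79, 2.65, 4.06, 5.37 and 5.49, both highest in mouse 51950. Without that PDGFRb library the difference of Map6 was 2.57 (adjusted p = 0.017) in place of 4.43, and that of Kctd7 was 1.2 (adjusted p = 0.24) in place of 3.82. With the block neither was called (adjusted p of 0.068 and 0.25). The changes, 4.23 ± 1.16 (SE, adjusted p = 0.026) and 3.77 ± 1.15 (SE, adjusted p = 0.049), were lost in 4 and 16 of the 19 fits without 1 library (adjusted p of 0.05 to 0.14 and 0.06 to 0.5).

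Of 27 adhesion and chemokine genes 8 were higher in the mural sort and 7 lower in breast metastasis, and 13 of 18 normal calls were kept. Among all genes tested 9% were higher and 7.51% lower, and 37.7% of normal calls were kept. The called mural genes of the list were chemokines and cytokines. Its called endothelial genes were the adhesion molecules Icam1, Icam2, Vcam1 and Cd34, the selectins Sele and Selp and the chemokine-binding receptor Ackr1. Ccl2, a monocyte attractant, stood at 344, 216, 82.4 and 180.2 CPM in the PDGFRb and 1.04, 0, 0.286, 2.98 and 1.12 in the CD31 breast libraries (log2 difference 7.55 ± 1.36 SE, adjusted p = 0.00024), and at 1.43 to 10 in the PDGFRb non-tumor libraries. Ccl11, the eosinophil attractant eotaxin, and Il34, a growth factor of microglia, stood at 133, 185, 52.7 and 66.8 and 529.6, 391, 234 and 103 CPM in the PDGFRb libraries (log2 difference 10.01 ± 1.86 SE, adjusted p = 0.00049 and 7.64 ± 1.1 SE, adjusted p = 1.3e-05). No CD31 library reached these levels. Selp, the P-selectin that tethers rolling leukocytes, stood at 101, 95.6, 37.7, 55.1 and 83.3 CPM in the CD31 breast libraries against 0.161 to 3.15 in the CD31 non-tumor ones. It had 2 counts in the PDGFRb breast libraries and was 2340-fold (95% counting interval 648 to 19400) higher in the CD31 sort. The adhesion molecules Icam2 and Vcam1 differed by -8.7 ± 0.69 (SE, adjusted p = 1.7e-09) and -1.38 ± 0.39 (SE, adjusted p = 0.015), the latter at 96.4, 141, 47, 139.5 and 121 against 66.2, 39.3, 31.1 and 31.7 CPM, overlapping, with an adjusted p of 0.057 with the block. Cxcl12, the ligand of Cxcr4 and normally endothelial (log2 difference -3.08 ± 0.77 SE, adjusted p = 0.0032), was not called (log2 difference -0.18 ± 0.76 SE, adjusted p = 0.92). Its CD31 libraries stood at 88.1, 42.6, 66.5, 51 and 63 CPM against 2192 to 3065 in non-tumor brain, and its change was not called (adjusted p = 0.1).

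Of 17 immune checkpoint genes 4 were higher in the mural sort and 4 lower in breast metastasis, or 1 and 4 with the block, and 5 of 9 normal calls, or 3 with the block, were kept. Over all genes tested 9% were higher and 7.51% lower, and 37.7% of normal calls were kept. Cd276, the ligand B7-H3, stood at 142, 76.5, 16.1 and 43.9 CPM in the PDGFRb and 21.6, 9.8, 9.04, 19.4 and 26.9 in the CD31 breast libraries, overlapping (log2 difference 2.01 ± 0.66 SE, adjusted p = 0.037). It had 1 count in the CD31 non-tumor libraries, where it was 647-fold (95% counting interval 116 to 25600) higher in the mural sort. The breast call was lost in 6 of 19 fits without 1 library (adjusted p of 0.055 to 0.17) and with the block (adjusted p = 0.21). Cd274, the ligand PD-L1, was normally endothelial (log2 difference -5.54 ± 0.8 SE, adjusted p = 5e-06) and not called in breast metastasis (log2 difference -1.26 ± 0.71 SE, adjusted p = 0.25), at 4.15, 20.1, 7.78 and 27.2 against 19.4, 33.5, 14.9, 58.7 and 51.5 CPM, a change of 4.28 ± 0.98 (SE, adjusted p = 0.0078). Entpd1, the ectoenzyme CD39, stood at 224, 193, 239, 91 and 239 CPM in the CD31 and 0, 1.54, 12.2 and 7.7 in the PDGFRb libraries (log2 difference -5.17 ± 0.76 SE, adjusted p = 1.8e-05) and changed by -3.83 ± 0.89 (SE, adjusted p = 0.0084), with an adjusted p of 0.1 with the block. Tnfsf9, the ligand of 4-1BB, had 3 counts in the CD31 libraries and was 839-fold (95% counting interval 287 to 4070) higher in the mural sort.

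**Figure D5:**
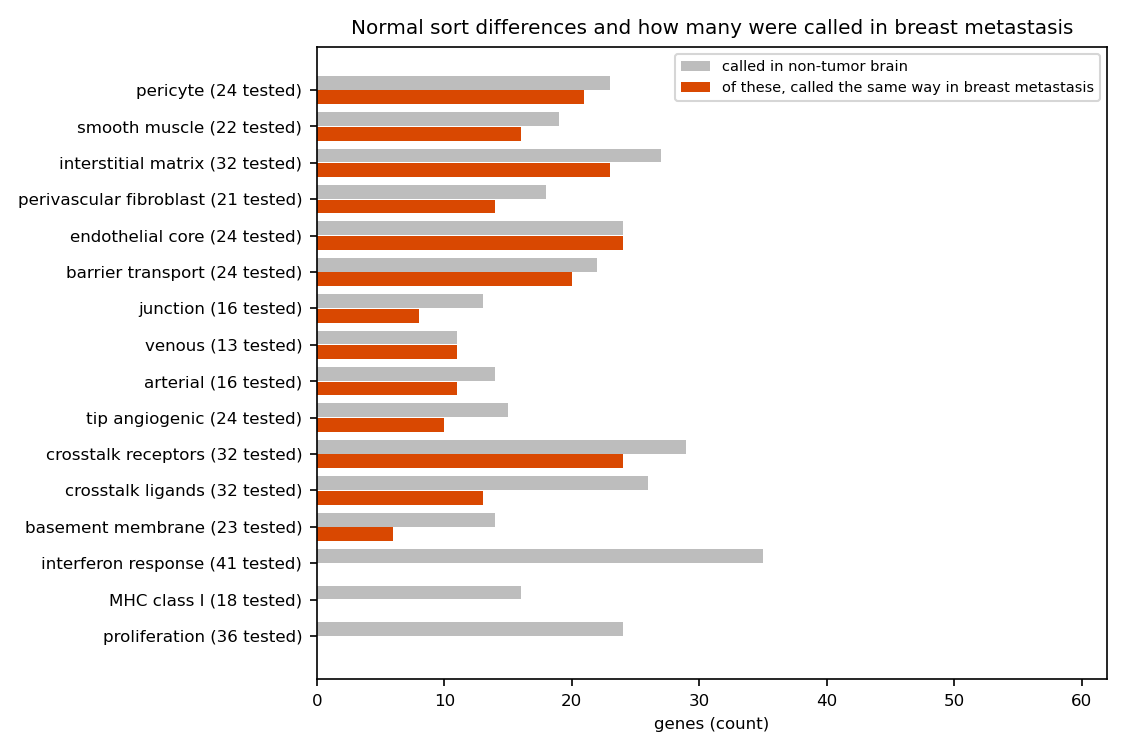
Number of genes per list called between the sorts in non-tumor brain (grey) and, of these, called the same way in breast metastasis (orange). All 24 endothelial core genes and 21 of 23 pericyte genes were kept, against 0 of 35 interferon response, 0 of 16 MHC class I and 0 of 24 proliferation genes. The endothelial core list includes the gate gene Pecam1.

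Counted by list, pericyte, smooth muscle and endothelial core genes kept 21 of 23, 16 of 19 and 24 of 24 normal calls, against 37.7% over all genes called normally. The endothelial core count includes Pecam1, the gene of the CD31 gate. Venous genes, markers of the vein side, kept 11 of 11, arterial genes 11 of 14 and capillary genes 8 of 10. Differences between lists were not tested. Within the 2 dates, the breast log2 differences of mean log2(CPM + 1) were 9.19 and 9.43 for Cspg4 and -8.48 and -9.48 for Ptprb, on the same side in each. Both genes were named from these same libraries, so this is no independent check. Of the normal interferon calls DESeq2 kept 1 and limma-voom 9. In the fits that left out 1 library, edgeR kept 0 to 2 interferon and 0 MHC class I or proliferation calls, with 2 interferon calls kept without PDGFRb breast mouse 51950, without PDGFRb breast mouse 53072 or without PDGFRb non-tumor mouse 54135.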

How the data were processed

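RNA from sorted cells was made into libraries by a SMART-Seq low-input kit with Nextera XT, per the labels' protocols, which keeps no strand and has no molecular identifiers. Per the submitters' processing notes, STAR (2.7.9a) and RSEM (1.3.3) were used with the mm10 build, and edgeR (version 3.36.0) and limma (version 3.50.3) are listed too. The deposited values are expected counts per gene, which were rounded to whole numbers, and the authors' FPKM values were used only to set levels of genes side by side. Of 53647 gene identifiers 52093 carried a symbol. Totals per library are in the first paragraphs of the results. Intervals and floors of 3 counts over a group cover counting error only.

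All 28 libraries in 6 groups were fitted together with edgeR 4.0.16 (R 4.3.3; filterByExpr, TMM scaling, robust quasi-likelihood test, Benjamini-Hochberg over 18548 genes, threshold 0.05). Contrasts were the sort difference in breast metastasis, the same in non-tumor brain, and the difference between them, called the change. Standard errors are the log2 value divided by the root of its F. In these data simulated with 50 changed genes per fold, the breast contrast recovered 4%, 52%, 90% and 100% at folds of 2, 4, 16 and 64, over 18548 genes, with 0.011% of unchanged genes called. Changes were set only in genes above a minimum level, and no other gene differed between the breast sorts. With so few changed genes the adjusted threshold was stricter than with the 3063 breast calls of the real data.

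The closest pair of libraries of 1 group had a chi-square of 17.6 per degree of freedom over 36 pairs, so none was counted as 1 sample with another. Same-numbered libraries of both sorts carry the same mouse number, which pairs them. The correlations of their deviations from the group means were -0.08 to 0.25 over 4 breast pairs and 0 to 0.13 over 5 non-tumor pairs. Alternatives were other scalings, DESeq2 1.42.0, limma 3.58.1 (voom), filters, the mouse as a block, the date as a covariate, the other reading of mouse 54135 and leaving out each library.

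Members and gene lists were chosen with earlier results of these data known. Named genes are those of the gates, a set list of vessel genes, the largest called differences (at least 3 mean log2 CPM, no overlap), the largest changes (at least 3 mean log2 CPM), and up to 4 per list. Others, such as Irf7, B2m, H2-D1, H2-K1, Top2a, Mki67, Aurkb, Lamb1, Hspg2, Smtn, Cald1, Flt1, Slc2a1, Lsr, Cdh2, Cxcl12, Cxcr4, Cd274, Ccl2 and the genes of other cell types, were named after their values were seen. The lung metastasis libraries entered the fit only. Some results on single genes are not reported here.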

Additional observations from a re-analysis of the deposited data

Results flagged for a closer look

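In 30 of 449 groups of 4 or 5 libraries checked (6.68%), 1 library stood far from the rest of its group on the log2(CPM + 1) scale, where chance marks about 1 in 20 groups (5%). Mouse 53072 was the lowest PDGFRb breast library for Notch3 (7.41, others 8.42 to 8.51), Col4a1 (11.23, others 12.46 to 12.69) and Cd248 (9.27, others 10.43 to 10.53). Mouse 51950 was the highest PDGFRb breast library for Myh11 (9.28, others 6.64 to 6.84), Cnn1 (7.07, others 4.22 to 4.7) and Ccnb2 (8.33, others 6.29 to 6.6). Mouse 51950 was the lowest PDGFRb breast library for S1pr1 (0.58, others 3.61 to 4.11) and Cxcr4 (0.0, others 2.77 to 3.07). Mouse 54135 was the lowest PDGFRb non-tumor library for Casq2 (7.71, others 8.62 to 8.97), Actg2 (1.42, others 3.83 to 4.66), Cald1 (9.59, others 10.37 to 10.49), Mmp11 (4.3, others 5.27 to 5.65), Col4a1 (8.91, others 10.08 to 10.34), H2-D1 (8.18, others 9.01 to 9.06), Il34 (8.2, others 8.47 to 8.52) and the basement membrane list level (5.97, others 6.7 to 6.95). Mouse 54135 was the highest CD31 non-tumor library for Mmrn2 (9.05, others 8.59 to 8.69). Mouse 54135 was the lowest CD31 non-tumor library for Irf7 (7.92, others 8.41 to 8.48). Mouse 53072 was the lowest CD31 breast library for Cyyr1 (7.09, others 7.57 to 7.66) and Entpd1 (6.52, others 7.6 to 7.91). Mouse 54132 was the lowest CD31 non-tumor library for Prnd (3.1, others 3.88 to 4.14). Mouse 54132 was the highest CD31 non-tumor library for Csn3 (6.07, others 0.55 to 1.49). Mouse 52599 was the highest CD31 breast library for Lrp8 (8.02, others 7.02 to 7.25) and Lamc3 (1.87, others 1.01 to 1.25). Mouse 54132 was the lowest PDGFRb non-tumor library for Cttnbp2 (3.24, others 4.86 to 5.38). Mouse 54132 was the highest PDGFRb non-tumor library for Csn3 (9.66, others 0.4 to 2.99), Trf (9.69, others 7.55 to 8.09) and the epithelial cancer list level (1.96, others 0.59 to 0.83). Mouse 56727 was the highest CD31 non-tumor library for the proliferation list level (2.23, others 2.03 to 2.07). Mouse 56740 was the highest CD31 non-tumor library for the interstitial matrix list level (2.53, others 2.13 to 2.22). Of these marks 8 fell on PDGFRb non-tumor mouse 54135 and 5 on PDGFRb breast mouse 51950.

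For 57 of 124 named genes the sort difference of breast metastasis departed from that of non-tumor brain, by edgeR's test of the change with Benjamini-Hochberg adjustment. The 53 given here had more than 3 counts in each of the 4 groups. Sema3g, Lama3, Selp and Cd276 had 3 counts or fewer in at least 1 group, so that the size of their fitted change, toward CD31 for each, depends on the prior count. On the log2 scale the change lay toward PDGFRb for Tie1 (3.13), Flt1 (3.98), Slc2a1 (2.08), Lsr (4.5), Fbn1 (5.01), Col14a1 (6.47), Mmp11 (4.37), Rcn3 (2.34) and Efemp2 (2.09). The change was also called for Irf7 (4.39), Parp14 (1.6), Gbp4 (6.71), B2m (2.53), H2-D1 (2.72), H2-K1 (2.81), H2-Q6 (3.12) and Cd274 (4.28). It was called too for Pllp (8.37), Rab11fip1 (7.19), Cd83 (7.07), Ceacam1 (6.93), Eps8l2 (6.88), Map6 (4.23) and Kctd7 (3.77).

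The change lay toward CD31 for Abcc9 (-6.3), Smtn (-1.76), Cald1 (-2.44), Ptprb (-2.64), Lrp8 (-3.55), Gja1 (-3.99), Cdh2 (-3.54), Angpt2 (-3.79), Apln (-9.4) and Esm1 (-7.13). It was likewise called for S1pr1 (-3.62), Cxcr4 (-5.65), Lamb1 (-4.93), Entpd1 (-3.83), Ccnb2 (-4.91), Pclaf (-6.86), Top2a (-6.26), Mki67 (-5.37), Aurkb (-8.08) and F3 (-8.86). Further such changes were those of Tgfbi (-8.78), Chst1 (-8.04), Sntb1 (-6.93), Fgf1 (-6.76), Tspan18 (-4.56), Cd93 (-3.64), Cttnbp2 (-5.26), Wscd1 (-4.43) and Rnd1 (-4.16). For 25 of the 57 named genes with a called change, the call was lost with the mouse as a block.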

How the results depend on the processing

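The breast sort difference of the 124 named genes kept its direction and side of the threshold in 3978 of 4087 comparisons with an alternative, and the change in 3705 of 3965. Direction reversed in none of the former and in 8 of the latter, all with mouse 54135 grouped by its cell type label: Abcc9 (1.05), Tie1 (-2.29), Flt1 (-0.69), Slc2a1 (-2.04), Lsr (-0.67), Cd276 (0.92), Ccnb2 (0.67) and F3 (0.63). That grouping gave 935 breast genes toward PDGFRb and 835 toward CD31, 0 and 0 non-tumor genes (1732 at an unadjusted p under 0.05 in edgeR, 6 by limma-voom), 4 and 43 changes, and thus 0 normal differences kept, 0% kept and 0 reversed. Without both libraries of that mouse, 279 and 422 changes were called.

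With the replicate block, which pairs the sorts of a mouse, 547 and 785 breast genes and 142 and 188 changes were called, with 1042 normal differences kept and 14 reversed. The block took the breast call from 10 of 90 named genes and the change from 25 of 57, and added none. Upper-quartile scaling called 2527 breast genes toward PDGFRb. The median of all breast differences was -0.04 with TMM, 0.01 with RLE and 0.1 with upper-quartile scaling, and that of the change -0.27, -0.37 and -0.25. DESeq2 called 1295 changes toward CD31 and 104 reversals. Limma-voom called 2314 breast genes toward CD31, 1067 changes toward CD31 and 77 reversals. Without a filter 281 changes toward PDGFRb were called, and with the date as covariate 33 reversals. A fit of the 9 breast libraries alone called 531 and 646 genes. Without both libraries of mouse 51950, an alternative chosen after seeing the data, 3099 non-tumor genes were called toward CD31.

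Leaving out 1 library gave 1209 to 1796 breast genes toward PDGFRb and 1148 to 1799 toward CD31, 2757 to 3893 and 1519 to 3168 in non-tumor brain, and 293 to 678 and 519 to 873 changes. Normal differences kept ranged from 1639 to 2440 (32.3% to 39.8%) and reversals from 38 to 73. The causes were not tested. The 7.11 M counts and 9174 genes of the PDGFRb library of mouse 51950 limit what could be detected in it, and at 4 against 5 libraries small differences were rarely recovered in simulated data (4% at a fold of 2). The simulation held far fewer changed genes than the real data, so its adjusted threshold was stricter.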

Other observations

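Immediate early genes, which respond quickly to stimulation, were mostly called on the CD31 side in non-tumor tissue. Of 21 measured, 11 were lower in the mural sort of non-tumor tissue and none higher, while in breast metastasis 3 (Egr1, Egr2 and Ier2) were higher and 2 (Klf2 and Klf4) lower. The change was called toward PDGFRb for 4, Junb, Ier2, Ier3 and Klf6. Among all genes tested 17.4% were higher and 10.5% lower in non-tumor brain, and 9% and 7.51% in breast metastasis. The change was called toward PDGFRb for 2.35% of all genes. Of 27 hypoxia and glycolysis genes, 5 were higher in the PDGFRb sort of breast metastasis and 1, Slc2a1, was lower. Of 12 normal calls 5 were kept, against 37.7% over all genes called normally. The change was called toward PDGFRb for Bnip3, Slc2a1 and Ldha, and toward CD31 for Egln3 and Car9.

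Genes of neural cells were also read in the mural sort. Of 14 neuron genes tested, 11 were higher in the mural sort of non-tumor tissue and none lower. In breast metastasis 2, Tubb3 and Meg3, were higher and 1, Stmn2, was lower (log2 difference -4.99 ± 1.5 SE, adjusted p = 0.021). The change was called toward CD31 for 4, Tubb3, Dlx1, Dlx5 and Nrxn3. Among all genes tested 17.4% were higher and 10.5% lower in non-tumor brain, and 9% and 7.51% in breast metastasis. The summed level of the neuron list was 99 to 2692 CPM of the raw total in the PDGFRb non-tumor and 223 to 557 in the PDGFRb breast libraries. Of 13 genes of oligodendrocytes and their precursors, a list that holds the pericyte gene Cspg4, 5 were higher in the PDGFRb sort of breast metastasis. In non-tumor brain 6 were higher, and the shares over all genes tested were 9% and 17.4%.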
